A study of Mus musculus with 6 samples.

Results

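A set of 39 genes for the surface, junctions and signalling of endothelial cells, the cells that line blood and lymph vessels, was followed in Flk1-positive cells in which the transcription factor Etv2 had been induced for 12 hours. The members were found by gene symbol. A probe set, the group of array probes that reads a transcript, was taken when its annotated symbol was exactly a member's name. Where a member had several, the probe set whose mean over the 6 arrays was highest stood for the gene. All 39 members were found among the 18193 genes measured. They were then sorted by level: 4 lay above the median of all gene means, 8.25 on the log2 scale, and are called expressed, and 35 lay at or below it and are called dim. The list also holds 4 genes whose products act inside the cell, the transcription factor genes Sox7 and Sox18, the enzyme gene Nos3 and the signalling adaptor gene Rasip1, and some whose products are secreted, such as Apln, Angpt2, Egfl7, Mmrn2 and Vwf.

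Endothelial cells hold to each other through adherens and tight junctions built on VE-cadherin and claudin-5, and they read signals through receptors such as Tie1, Tek and the apelin receptor. In the embryo they come from mesoderm that carries Flk1, a receptor for VEGF encoded by Kdr. Etv2, a factor of the ETS family, is needed in mouse for the endothelial and blood lineages, and many endothelial genes carry ETS motifs, whose core is GGAA, in their control regions.

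The cells were an ES cell line, ER71 A17C, made on the 129P2/Ola background, and all 6 samples carried the doxycycline-inducible Etv2 cassette. Differentiation took place in embryoid bodies grown in hanging drops, and the cells were sorted for Flk1 at day 3.5. The 3 induced samples were given doxycycline at 0.5 microg/ml for 12 hours, starting on day 3.0, and the 3 controls were untreated per the series' design text, although the treatment label carries the doxycycline text on all 6. No doxycycline-treated line without the cassette was used here, so an effect of doxycycline itself cannot be told apart from an effect of Etv2. No label says that the replicates were separate cultures, so each p-value rests on a spread between samples that may be technical.

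Etv2 stood at 9.92, 8.59 and 10.71 in controls 1, 2 and 3 and at 13.27, 13.28 and 13.36 in induced samples 1, 2 and 3, so that every induced sample lay above every control. Kdr stood at 10.02, 8.40 and 10.97 in the controls and at 9.56, 9.36 and 10.52 in the induced samples. The groups overlapped in Kdr, and control 2 was the lowest of the 6 arrays in this gene. Of the markers of Flk1-positive mesoderm 8 were measured and 8 lay above the median of all genes. The defining endothelial genes Cdh5, Pecam1, Tie1, Tek, Emcn, Esam and Cldn5 were all dim in both groups. The lower quartile of gene levels was 6.69 in induced 2 and 6.53 to 6.60 in the other arrays.

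None of the 39 members passed the threshold between the groups after adjustment. Limma called 0 members at an adjusted p under 0.05, with 1 of 18193 genes (0.0055%) called in all, and the members' smallest adjusted p was 0.9995. The induced gene Etv2, with a difference of 3.56, was not called either, at an adjusted limma p of 0.39. In a limma fit that paired the samples by replicate number its adjusted p was 0.055, still above the threshold. A count of 0 members therefore does not show that the members were unchanged. At an unadjusted p under 0.05 there were 3 members, Icam1, Ecscr and Nos3, against 1.71% of all genes. All 3 were higher in the induced samples, against 0.846% of all genes in that direction, and 0 were lower, against 0.868%. This count was 5 without control 3 and 1 without both samples of number 1, and 2 to 4 with other samples left out. The 95% intervals of all 39 differences lay inside a change of 1 in either direction on the log2 scale. In sorted bulk samples, fewer cells of a type and less RNA per cell cannot be told apart.

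**Figure D1:**
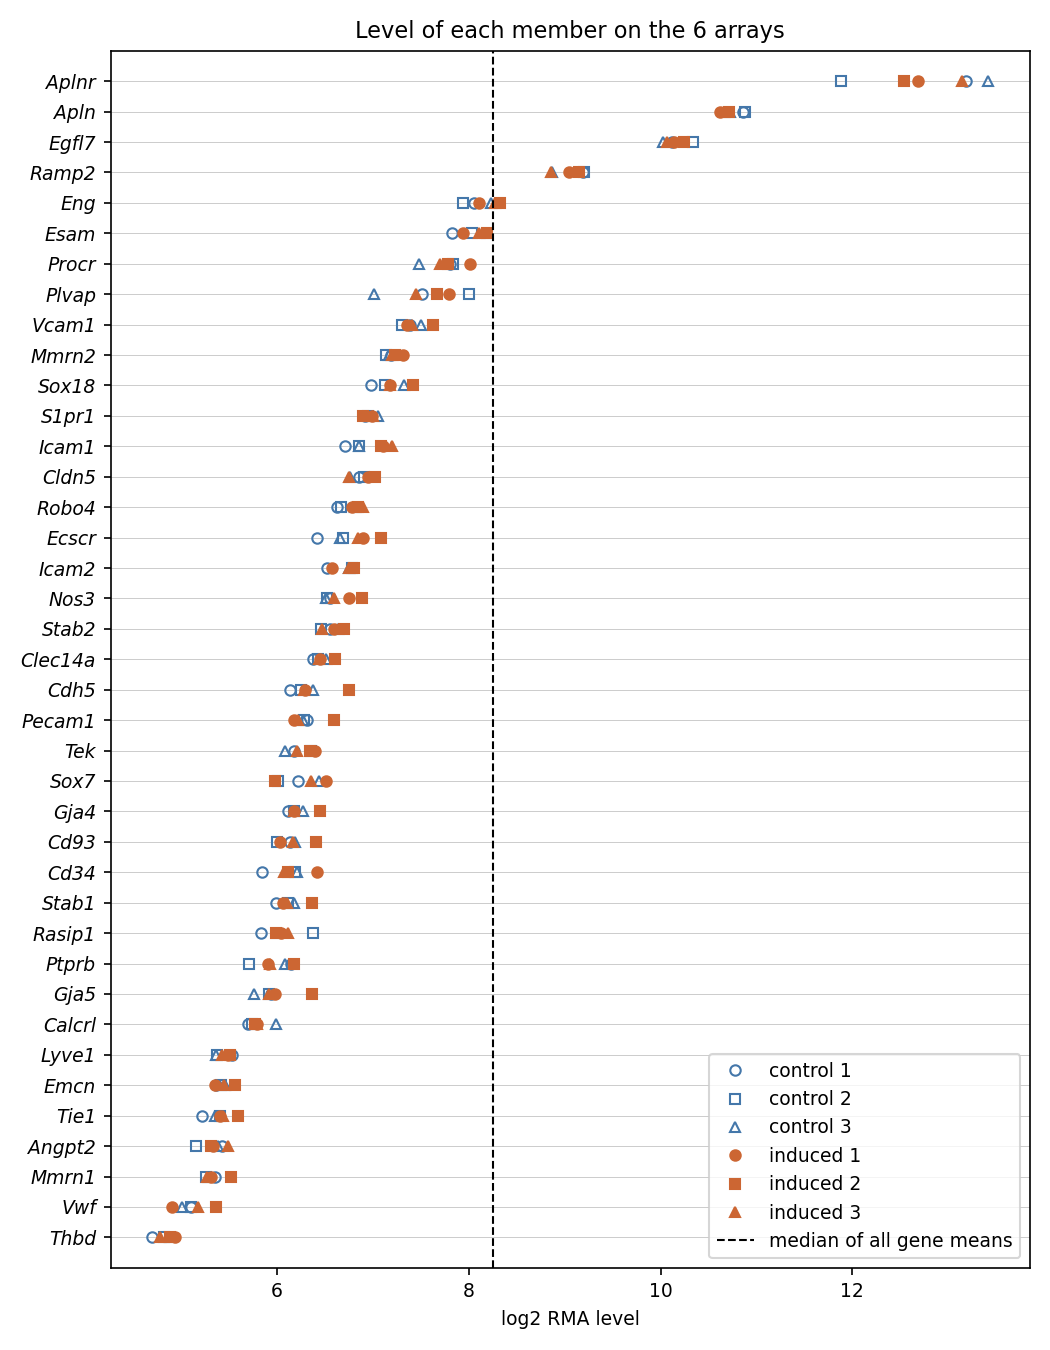
Log2 RMA level (x axis) of each of the 39 members (y axis) on the 6 arrays, with open symbols for controls, filled symbols for induced samples, the symbol shape for the replicate number, and a dashed line at the median of all gene means. Aplnr, Apln, Egfl7 and Ramp2 lie right of the line, and the controls and induced samples overlap in 34 members.

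The promoters of 2 members whose groups did not overlap, Icam1 and Apln, are shown because the induced factor binds the ETS core. Each runs from 250 bases before to 50 bases after the gene's start, read on the gene's strand from RefSeq (GRCm38.p6), at chr9:21015690-21015989 on the plus strand for Icam1 and chrX:48034804-48035103 on the minus strand for Apln. Capitals mark GGAA or its reverse complement TTCC.
Icam1: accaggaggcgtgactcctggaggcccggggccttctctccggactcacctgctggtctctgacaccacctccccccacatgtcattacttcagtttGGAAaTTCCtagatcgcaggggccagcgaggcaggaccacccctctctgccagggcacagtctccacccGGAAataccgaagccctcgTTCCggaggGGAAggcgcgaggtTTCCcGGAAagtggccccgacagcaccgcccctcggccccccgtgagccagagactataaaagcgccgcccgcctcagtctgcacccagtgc
Apln: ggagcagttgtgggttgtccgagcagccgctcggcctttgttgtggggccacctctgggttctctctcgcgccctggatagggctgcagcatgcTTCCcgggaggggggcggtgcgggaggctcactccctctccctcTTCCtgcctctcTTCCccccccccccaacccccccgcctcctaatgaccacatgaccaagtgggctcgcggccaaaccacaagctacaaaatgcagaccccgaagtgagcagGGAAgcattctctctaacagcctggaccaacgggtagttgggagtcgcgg
Icam1 held 7 ETS cores, counting both strands, and Apln held 4. Promoters were in the table for 19 of the 39 members, with 21 promoters between them. GGAA, searched on both strands, was found in 20 of these 21 promoters, from 18 of the 19 genes, and in 96% of the 32851 promoters of the table. CCGGAA, a longer form that contains the core, was found in 1 of the 21 promoters, that of Icam1, at 3 places, and in 14.9% of all promoters. AACAGGAA, the core joined to the end of a forkhead motif, was also searched on both strands. It was found in 3 of the 21 promoters, 1 each of Calcrl, Egfl7 and Emcn, and in 2.65% of all promoters. These matches describe letters in the windows and no binding was measured.

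The 4 expressed members were the apelin receptor gene Aplnr, the apelin gene Apln, Ramp2 and Egfl7. Each had a negative difference, with a median of -0.058 on the log2 scale against -0.033 over all 9096 expressed genes, of which 36.6% were positive. The members' median was -0.026 without control 1, -0.13 without control 3 and -0.098 without induced 2. Aplnr (probe set 1438651_a_at), a G protein-coupled receptor of early mesoderm and of sprouting vessels, stood at 13.19, 11.89 and 13.42 in controls 1, 2 and 3 and at 12.68, 12.54 and 13.14 in induced samples 1, 2 and 3. All 3 induced samples lay inside the range of the controls. The difference was -0.042 ± 0.37 (SE), with a 95% interval of -0.89 to 0.81, the widest interval of the 4.

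Apln (1451038_at), the peptide ligand of that receptor, stood at 10.86, 10.88 and 10.72 in the controls and at 10.62, 10.71 and 10.66 in the induced samples. The induced samples all lay below the controls, and the highest of them came close to the lowest control. Groups that do not overlap in the lower direction were seen in 3.91% of all genes and in 5.76% of all expressed genes. Apln was the 1 such member. Its difference was -0.16 ± 0.079 (SE), with a 95% interval of -0.34 to 0.027, at an unadjusted limma p of 0.084.

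Ramp2 (1418187_at) encodes a partner protein that turns the calcitonin receptor-like receptor into an adrenomedullin receptor. It stood at 9.20, 9.20 and 8.87 in the controls and at 9.04, 9.14 and 8.86 in the induced samples, and the groups overlapped, with sample 3 lowest in each. The difference was -0.073 ± 0.12 (SE). Its receptor partner Calcrl was dim, with a difference of -0.022 ± 0.093.

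Egfl7 (1451428_x_at), a secreted protein of endothelial cells and their precursors, stood at 10.12, 10.34 and 10.03 in the controls and at 10.14, 10.25 and 10.06 in the induced samples. The groups overlapped. Its difference was -0.011 ± 0.10 (SE), with a 95% interval of -0.24 to 0.22.

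Junction and adhesion genes were all dim. All 10 had a positive difference, against 65.6% of all dim genes, and 0 passed the adjusted threshold. Their differences ran from 0.027 to 0.33 with a median of 0.068, against a median of 0.035 over all dim genes. Icam1 (1424067_at), a receptor for leukocyte integrins, stood at 6.70, 6.86 and 6.85 in controls 1, 2 and 3 and at 7.11, 7.09 and 7.19 in induced samples 1, 2 and 3. Every induced sample lay above every control, as was so in 2.88% of all genes and in 3.72% of all dim genes. The difference was 0.33 ± 0.080 (SE), a ratio of 1.25, and its 95% interval ran from 0.14 to 0.51. Its unadjusted limma p was 0.0036, the smallest of the 39, and its adjusted p was 0.9995.

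Cdh5, which encodes VE-cadherin of the adherens junction, stood at 6.13, 6.24 and 6.38 in the controls and at 6.29, 6.75 and 6.28 in the induced samples. Cdh5 and Pecam1 are given array by array as defining endothelial genes, outside the rule for named genes. For Cdh5 the value of induced 2 was the highest, and the other induced samples lay inside the range of the controls. The difference was 0.19 ± 0.14 (SE). Pecam1, which encodes the adhesion protein CD31, stood at 6.31, 6.28 and 6.27 in the controls and at 6.18, 6.60 and 6.21 in the induced samples. Induced 2 lay above all controls in Pecam1, and induced 1 and 3 lay below them. The remaining genes of this group are Esam and Cldn5 of tight junctions, Icam2 and Vcam1, which bind leukocytes, the connexin genes Gja4 and Gja5, and Ptprb, a phosphatase that associates with VE-cadherin. Their differences lay between 0.027 for Icam2 and 0.22 for Gja5.

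Among receptors and ligands 5 of 10 had a positive difference, against 65.6% of all dim genes and 36.6% of all expressed genes. Tie1 and Tek, the kinases of the angiopoietin pathway, had 0.15 ± 0.088 (SE) and 0.11 ± 0.095, and Angpt2, a ligand of Tek, had 0.054 ± 0.099. For Eng, a co-receptor of the TGF-beta family, the difference was 0.16 ± 0.10, and for Robo4, an endothelial receptor of the Roundabout family, it was 0.14 ± 0.082. S1pr1, a receptor for sphingosine 1-phosphate, was at -0.0063 ± 0.077. None of these passed at an unadjusted p under 0.05 in limma. Eng, at a mean of 8.15, and Esam, at 8.04, were the members just under the level that divides expressed from dim, and Ramp2, at 9.05, was the member just above it.

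Among glycoproteins and secreted proteins 8 of 9 had a positive difference, against 65.6% of all dim genes and 36.6% of all expressed genes. Ecscr (1437451_at), a surface protein of endothelial cells that acts in migration, stood at 6.42, 6.68 and 6.66 in the controls and at 6.90, 7.08 and 6.85 in the induced samples. Every induced sample lay above every control. The difference was 0.36 ± 0.10 (SE), a ratio of 1.28, and the 95% interval ran from 0.12 to 0.59 at an unadjusted limma p of 0.0087. It was the largest positive difference of the 39 members, and its adjusted p was 0.9995.

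Mmrn2 (1420276_x_at), a matrix protein that binds Cd93 and Clec14a, stood at 7.19, 7.13 and 7.17 in the controls and at 7.31, 7.23 and 7.20 in the induced samples. The groups did not overlap, and the gap between them was narrow. Its difference was 0.087 ± 0.073 (SE), at an unadjusted limma p of 0.27, and it was 0.055 without induced 1. The lectin-like receptors Cd93 and Clec14a had 0.098 ± 0.11 and 0.063 ± 0.083. The remaining genes here are Cd34 and Emcn, which encode sialomucins, Plvap, which forms the diaphragms of fenestrated vessels, and Mmrn1, with differences between 0.038 for Emcn and 0.13 for Plvap.

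Regulators inside the cell, all dim, were positive in 3 of 4, against 65.6% of all dim genes. Nos3 (1422622_at), the endothelial nitric oxide synthase gene, stood at 6.56, 6.52 and 6.51 in the controls and at 6.75, 6.88 and 6.59 in the induced samples. The groups did not overlap, and the induced samples were spread more widely, at an SD of 0.15 against 0.022. The difference was 0.21 ± 0.091 (SE), a ratio of 1.16, with an unadjusted limma p of 0.049, and it was 0.14 without induced 2. Sox18 and Sox7, transcription factors of the SoxF group, had 0.11 ± 0.11 and 0.058 ± 0.16, and Rasip1, which acts with Rap1 in vessel lumens, had -0.021 ± 0.14.

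The scavenger and lymphatic genes and the coagulation genes showed only small values. Stab1 and Stab2, scavenger receptors of sinusoidal endothelium, and Lyve1, the hyaluronan receptor of lymphatic vessels, had differences of 0.037 to 0.081. Vwf, which encodes a clotting factor stored by endothelial cells, and Thbd and Procr, which encode receptors of the protein C pathway, had differences of 0.064 to 0.12. All 6 were positive, against 65.6% of all dim genes, and 0 of them passed at an unadjusted p under 0.05 in limma.

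**Figure D2:**
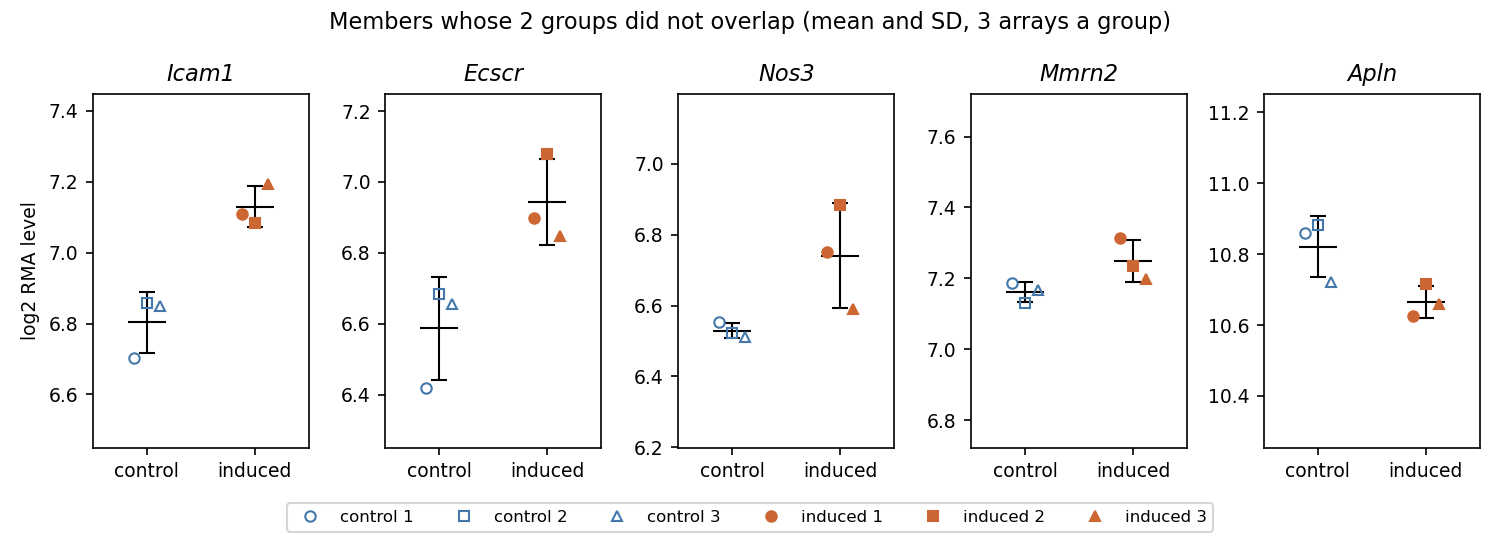
Log2 RMA level (y axis, 1 log2 unit in every panel) of Icam1, Ecscr, Nos3, Mmrn2 and Apln in the 3 controls and 3 induced samples (x axis), with the group mean and SD as horizontal mark and bar. The induced samples lie above the controls in the first 4 panels and below them for Apln, by differences of 0.33, 0.36, 0.21, 0.087 and -0.16.

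Taken over the dim members, 32 of 35 had a positive difference, with a median of 0.079. Dim genes in general were also mostly positive: 65.6% of all 9097 had a positive difference, with a median of 0.035. In replicate number 1 the median difference was 0.096 for the dim members and 0.0056 for all dim genes. In number 2 the medians were 0.19 and 0.14. In number 3 they were -0.013 and -0.044. The members' median thus lay above that of all dim genes in each number, and its sign in number 3 was negative.

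Induced 2 was the highest array for 21 of the 35 dim members and for 52.9% of all dim genes. Without induced 2, 23 of the 35 dim members had a positive difference, against 43.8% of all dim genes, and the members' median was 0.032 against -0.013. Without both samples of number 2 the count was 24, against 41.3%, and the medians were 0.031 and -0.020. Quantile normalization left 30 of 35 positive, against 55.8% of all dim genes, and centring each array on its median left 32, against 56.4%. Higher in all 3 numbers were 9 of the dim members, against 12.4% of all dim genes: Eng, Mmrn2, Icam1, Robo4, Ecscr, Icam2, Nos3, Gja5 and Tie1. Of the dim members 4 lay wholly above the controls, against 3.72% of dim genes, and 0 lay wholly below, against 2.07%. These counts describe a list whose genes share arrays and are not independent of each other.

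**Figure D3:**
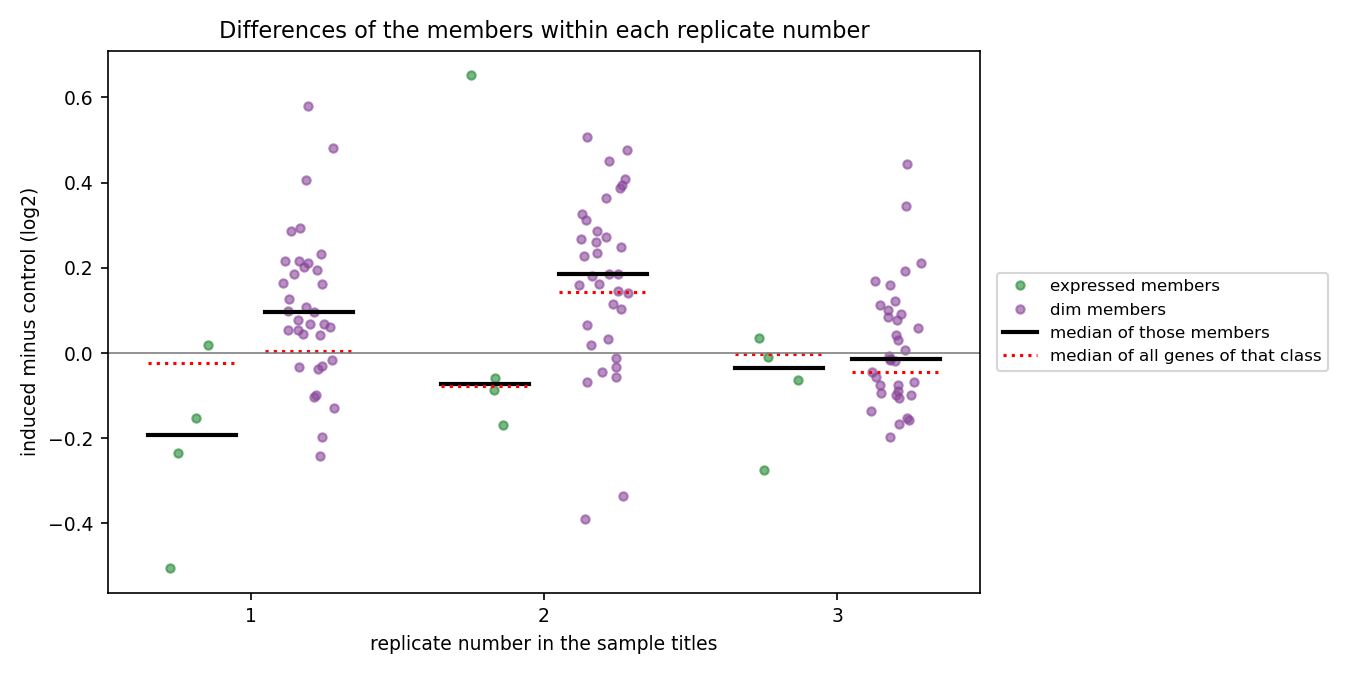
Induced minus control difference on the log2 scale (y axis) of each expressed and dim member within replicate numbers 1, 2 and 3 (x axis), with the members' median as a solid line and the median of all genes of that class as a dotted line. The dim members' median is 0.096, 0.19 and -0.013, and the dotted line moves with it, at 0.0056, 0.14 and -0.044.

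Variation between arrays of the same group was wider for Aplnr than the difference between groups, and it followed Kdr. Over the 6 arrays Aplnr and Kdr had a Pearson r of 0.97 (exact permutation p = 0.0056, adjusted 0.011 over 4 relations) and a Spearman rho of 0.94 (exact permutation p = 0.0167, adjusted 0.033). The permutation treats the 6 arrays as exchangeable, while same-numbered arrays deviated together, so the p-values of these relations may be too small. Without control 2 and control 3, the arrays farthest from the median of Kdr, r was 0.90. Another Aplnr probe set, 1423037_at, had r = 0.98. Within replicate numbers 1, 2 and 3 the induced minus control difference was -0.51, 0.65 and -0.27 in Aplnr and -0.46, 0.96 and -0.45 in Kdr, so the signs were the same in each number.

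Egfl7 ran the other way on its chosen probe set, with a Pearson r of -0.97 (exact permutation p = 0.0028, adjusted 0.011) and a Spearman rho of -1 (exact permutation p = 0.0028, adjusted 0.011), the smallest p that 6 arrays allow. Without control 2 and control 3, r was -0.91. Its 3 other probe sets had r = -0.45, -0.57 and -0.10, so the relation was not shared by the gene's probe sets. Ramp2 had r = -0.80 (exact permutation p = 0.056, adjusted 0.074) and rho = -0.77 (p = 0.103, adjusted 0.137), with r = -0.64 without those 2 arrays. Apln had r = -0.45 (exact permutation p = 0.39, adjusted 0.39) and rho = -0.26 (p = 0.66, adjusted 0.66), with r = 0.083 without them, and neither gene passed.

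Many genes varied with Kdr on these arrays, with r of at least 0.9 in 2.51% of genes and r of -0.9 or below in 2.89%. The mean of the Flk1 mesoderm markers, Kdr among them, was lowest in control 2, at 10.21, and highest in control 3, at 11.39, and that of 8 pluripotency genes was 11.84 and 10.94 in the same arrays. Over the 6 arrays Aplnr had r = 0.99 with the mesoderm mean and -0.97 with the pluripotency mean, and Egfl7 had -0.96 and 0.92; this is a description with no test. Each replicate number holds 2 arrays and each group 3, too few for a correlation within either, and no label shows that the 6 arrays are independent. Among dim members Plvap, singled out after its values were seen, had the widest range over the arrays, at 7.51, 8.0 and 7.01 in the controls and 7.80, 7.66 and 7.45 in the induced samples. Its highest value was in control 2, where Kdr was lowest, and its lowest in control 3, where Kdr was highest.

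**Figure D4:**
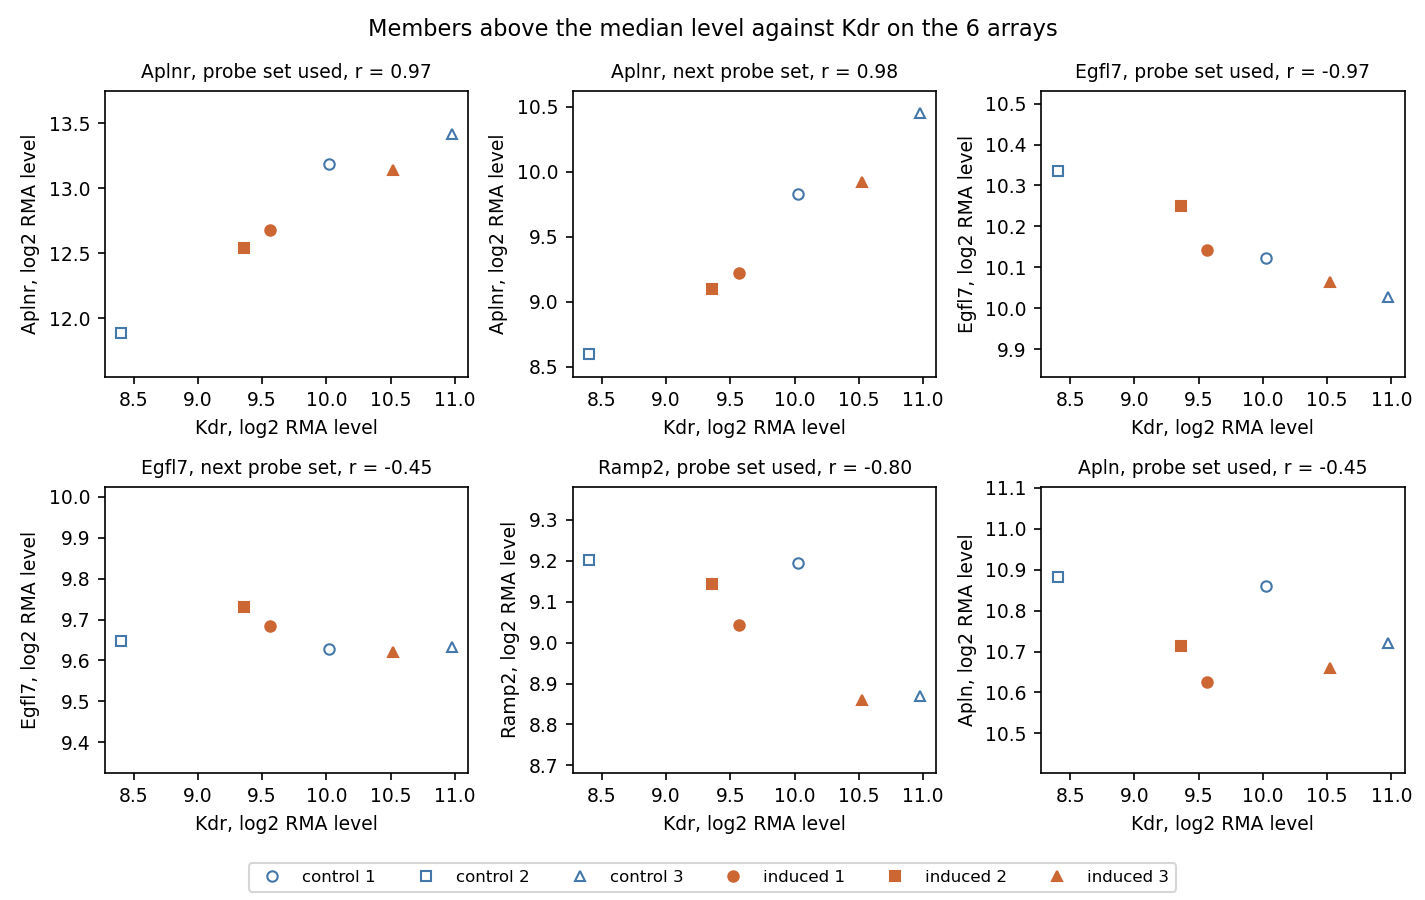
Log2 RMA level of the expressed members (y axis) against that of Kdr (x axis) on the 6 arrays, with open symbols for controls and filled symbols for induced samples. The y axes cover a wider span for Aplnr than for the other genes. Both Aplnr probe sets go up with Kdr (r = 0.97 and 0.98), while of the Egfl7 probe sets drawn the used set goes down (r = -0.97) and the next has r = -0.45.

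Of the members 14 had more than 1 probe set, which gave 24 further probe sets. In 16 of the 24 the difference had the sign of the probe set used, and in 8 it was opposite. The groups did not overlap in 4 of them, all higher in the induced samples, against 2.44% of all such further probe sets, and 0 were lower, against 3.65%. For Cdh5, probe set 1433956_at stood at 6.10, 6.08 and 6.16 in the controls and at 6.44, 6.40 and 6.20 in the induced samples, a difference of 0.23 in which induced 2 was not the highest array. For Mmrn2, probe set 1437123_at stood at 6.70, 6.78 and 6.83 against 6.98, 7.21 and 7.03, a difference of 0.30, where the probe set used gave 0.087. Probe set 1432176_a_at of Eng had a difference of 0.15, and 1456046_at of Cd93, at a mean level of 5.34, had 0.19. The remaining further probe sets of Cd93 had differences of 0.036, 0.019 and -0.0026, and those of Mmrn2 had 0.035 and -0.014. In all of these the groups overlapped.

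Other genes of the endothelial programme were read for comparison, from a list of 30 factors and receptors. Of these, with a median difference of 0.032, 19 were positive, against 51.1% of all genes. Past the adjusted limma threshold there were 0 in either direction, and 3 had an unadjusted p under 0.05, against 1.71% of all genes. The 3 were Lmo2, a cofactor of blood and endothelial factors, at 0.81 ± 0.12 (SE), the ETS factor Elk3, at 0.78 ± 0.18, and Rhoj, a small GTPase of endothelial cells, at 0.33 ± 0.091. Every induced sample lay above every control in 4 of the 30, these 3 and Notch4, against 2.88% of all genes. The groups lay wholly the other way in 0 of the 30, against 3.91% of all genes.

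Markers of other cells that the gate could hold were also read. Of 8 macrophage genes 8 were positive and 2 lay above the median level, Laptm5 and Csf1r, with differences of 0.050 ± 0.10 (SE) and 0.0034 ± 0.093. Their mean level was 6.79 to 6.86 in the controls and 6.77 to 7.13 in the induced samples, with induced 2 the highest. Megakaryocyte genes, some of which endothelial cells share, were positive in 4 of 5, and the 2 with the highest level, Itga2b and Gp9, had differences of 0.14 ± 0.12 and 0.052 ± 0.091. Of 8 mural genes 5 were positive, with Tagln at 0.30 ± 0.078 and Cnn1 at -0.090 ± 0.098. In visceral endoderm 6 of 7 genes were positive, with Apoe at 0.41 ± 0.41 and Ttr at 0.066 ± 0.12. Among pluripotency genes 6 of 8 were positive, with Tdgf1 at 0.022 ± 0.093 and Pou5f1 at 0.23 ± 0.18. In all 5 lists 0 genes passed the adjusted limma threshold. An unadjusted p under 0.05 was seen in 2, Tagln and the visceral endoderm gene Cubn, against 1.71% of all genes. Positive differences were seen in 65.6% of all dim genes and in 36.6% of all expressed genes. The part of these 5 lists in the members' values was not tested.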

How the data were processed

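Values were deposited as log2 levels for each probe set, and the authors made them with RMA, per the submitters' processing notes, a method that background-corrects, normalizes and summarises the probes of each set. Its version is not stated in the sources. The array quartiles were not equal, and scanner files and detection calls were not used here. The 3 arrays in each group, and not a sequencing depth, limit the precision, and low array values are compressed by background.

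Of 45101 probe sets, 34958 had 1 gene symbol, 932 several and 9211 no entry in the platform annotation. After 13 control probe sets were set aside, 18193 genes were each read from their highest-mean probe set, with no filter on dim probe sets. Groups came from the sample titles. Limma (version 3.58.1, R 4.3.3; lmFit, eBayes, two-sided, Benjamini-Hochberg over all genes, threshold 0.05) compared induced with control samples, and was checked on simulated data. Values are group means with SD or differences, induced minus control, with the SE of the fit.

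The members and lists were chosen with earlier results of these data known. Named with values are the expressed members, dim members at an unadjusted p under 0.05 or with groups that do not overlap, Etv2 and Kdr, the 3 smallest p of the other endothelial list and the 2 highest of each other list. Of 115 listed entries 113 were measured.

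Same-numbered samples deviated together over all genes, at r = 0.16, 0.22 and 0.41 for numbers 1, 2 and 3, all above 0.1, the level set for pairing. Some arrays of unlike number correlated more than those of numbers 1 and 2, at r = 0.30 for control 2 with induced 1 and 0.24 for control 1 with induced 3. The pairing rests on these values and the shared numbers, and no label names a shared day or culture. Unless the pairing or the block is named, every printed SE, interval and limma p comes from a fit without the replicate block. Such a fit leaves the pairing out. With the block the SE was 0.20 for Aplnr, against 0.37, and 0.083 for Apln, against 0.079. Correlations used exact permutation of the 6 arrays (SciPy 1.17.1). Alternatives were 2 normalizations, 2 choices of probe set, a filter on dim genes, array weights, a trended prior, the replicate block, left-out arrays and other levels for the division into expressed and dim.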

Additional observations from a re-analysis of the deposited data

How the results depend on the processing

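Limma called 0 of the 39 members in all 17 alternatives of the comparison, left-out samples included, and with the filter on dim genes only the 4 expressed members were tested. Each adjusted p of the 8 named members was 0.894 or higher. With the replicate block 0 members were called, 3 had an unadjusted p under 0.05 and the smallest adjusted p was 0.992, so pairing by number ended or added no call among the members. Over all genes, 1 was called in the reported fit, 2 with the block and 6 with array weights, and 0 to 3 with samples left out, while 312 genes had an unadjusted p under 0.05 in the reported fit, 655 with the block, 606 with array weights, 179 of the genes above the median level, and 101 to 881 with samples left out.

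The differences of Apln, Icam1, Ecscr, Nos3 and Mmrn2 kept their sign in every alternative; that of Nos3 was 0.14 without induced 2 or both samples of number 2, and that of Mmrn2 was 0.055 without induced 1, 0.056 under quantile normalization and 0.30 with the probe set of largest variance. That of Apln was -0.10 under quantile normalization. That of Egfl7 turned to 0.032 under quantile normalization and ran from -0.078 to 0.076 with samples left out; that of Aplnr ran from -0.51 to 0.25 and that of Ramp2 from -0.18 to 0.0045. Over the members, 1 to 5 had an unadjusted p under 0.05 with samples left out, 2 after median centring or with the trended prior, and 4 with array weights. The expressed members' median ran from -0.13 to -0.026 with samples left out, was -0.030 under quantile normalization, -0.10 and -0.11 with the mean of all probe sets and the most variable one, -0.11 with array weights and -0.099 with the level at the upper quartile. It became 0.078 when the level was set at the lower quartile, which by construction moved 14 more members into that class, giving 18. The dim members' median stayed between 0.031 and 0.13 over its alternatives, with 0.032 without induced 2, 0.031 without both samples of number 2, 0.050 under quantile normalization and 0.13 without both samples of number 3. The count of dim members with a positive difference, an alternative added after seeing the data, was 23 without induced 2, 24 without both samples of number 2, and 29 to 33 in the other settings. The correlation of Apln with Kdr was 0.083 without control 2 and control 3, where n is 4 and no test was made.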
